A study of Drosophila melanogaster with 4 samples.

Results

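Wide autosomal H4K20me1 domains are the peaks of at least 7000 bp on the main arms of chromosomes 2, 3 and 4 in wing discs of Drosophila melanogaster. They were chosen by width alone (end minus start plus 1) from the peak list that the authors deposited, and 424 of its 7885 peaks met the rule. The other sets used below are 6073 shorter autosomal peaks and 87 X peaks of the same width class. Peaks of the heterochromatic and unplaced sequences numbered 21, and the widest of these was 3600 bp.

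The series addresses a role of Polycomb in positive transcription regulation through this mark. It holds 4 samples with 1 library each, and the peaks come from a single ChIP library of wild-type wing discs from instar 3 larvae grown at 25 °C. In the line called wild type, an actin promoter (Act5C) drives the yeast activator GAL4. Its label lists the alleles y1 and w* and the insertion P{Act5C-GAL4}25FO1 over the chromosome CyO, y+. CyO is a balancer, a rearranged second chromosome. Whether the larvae used carried it is not stated. Positions on 2L and 2R below follow the reference map and not the order on such a homologue. No replicate of the ChIP library was used, so no value below has a replicate error and no p-value is given. Widths and scores chose or share reads with the choice of the domains, and they are given as a description.

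H4K20me1 is the single methyl group that the enzyme PR-Set7 (Set8 in mammals) places on lysine 20 of histone H4. The mark is laid down around mitosis, and Suv4-20 enzymes can convert it to the di- and trimethyl forms. It is bound by malignant brain tumour (MBT) domain proteins, and in different settings it has been linked to chromosome compaction, to repression and to the bodies of transcribed genes. In mammals it also marks the inactive X chromosome. It is often found over broad stretches of chromatin, which is the property that the width rule selects.

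By the width rule itself, the wide domains held a larger share of the covered sequence than of the peaks. They were 6.53% of the 6497 autosomal peaks but 23.1% of the 19.6 Mb that autosomal peaks covered, and they held 29.7% of the summed score. The covered share rests on the breaks between intervals and on the width rule, as it was 56.6% after intervals up to 1000 bp apart were joined and 12.2% with a threshold of 10000 bp. Together they covered 4.53 Mb, against 15.1 Mb in the shorter autosomal peaks. Over the whole list, X included, they made up 19.2% of the covered sequence. The score is the authors' own value per peak, the sources used here do not give its scale, and it serves only to describe and rank peaks within this list.

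Most domains lay close to the threshold, with a long tail of wider ones. The median width was 9000 bp, with quartiles of 7600 and 11450 bp, and the range ran up to 46800 bp. At least 10000 bp was reached by 160 domains, at least 20000 bp by 24 and at least 30000 bp by 9. The 24 domains of at least 20000 bp held 14.8% of the members' sequence and 18.1% of their score. The 148 widest held 50% of the sequence that the 424 domains covered, and the 98 with the highest scores held 50% of their summed score. Score per kb, the score divided by the width, varied between adjacent widths around the threshold. The 31 autosomal peaks of exactly 7000 bp had a median of 74.1 score per kb, with a range of 27.5 to 187.1. The 29 of 6800 bp had a median of 77.1, with a range of 19.8 to 229.6. One width step further out on either side, medians were 66.2 for the 26 peaks of 7200 bp and 54.7 for the 34 peaks of 6600 bp.

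The widest domain was chr3L:17946601-17993400 (dm3), at 46.8 kb. It also had the highest score of all members, 7669, or 163.9 per kb, which placed it 35th of the 424 by score per kb. Its nearest wide neighbour lay 175.8 kb away, so it stood as a single domain. No peak lay within 42.4 kb to its left, and the nearest to its right was a shorter one 0.6 kb away. The second widest was chr2L:640401-687000, at 46.6 kb with a score of 4943, or 106.1 per kb, and it had another wide domain 9 kb away. The widest on 3R, chr3R:26151001-26187600, measured 36.6 kb with a score of 3931, or 107.4 per kb. The widest on 2R was narrower, with chr2R:20467801-20494600 at 26.8 kb, a score of 3008 and 112.2 per kb. Of the 10 widest domains, 5 lay on 3L, 3 on 3R, 1 on 2L and 1 on 2R.

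The next widest domains came partly in close pairs. On 3R, chr3R:27677601-27713600 (36 kb, 133.9 score per kb) and chr3R:27723001-27759400 (36.4 kb, 153.8 score per kb) were 9.4 kb apart and lay near the telomere end of the arm. On 3L, chr3L:22317001-22348000 (31 kb, 66.6 score per kb) and chr3L:22361401-22401000 (39.6 kb, 87.8 score per kb) were 13.4 kb apart near the centromere end. One pair therefore sat at the telomere side of its arm and the other at the centromere side. The remaining members of the 10 widest were chr3L:19002201-19038600, at 36.4 kb and 94.9 score per kb, and chr3L:20915401-20945800, at 30.4 kb and 102.2 score per kb.

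Deposited intervals were never less than 600 bp apart, and many wide domains ended at such a break. A further peak of any width lay within 1000 bp of 302 of the 424 domains (71.2%, exact 95% binomial interval 66.7 to 75.5%), against 56.9% of the shorter autosomal peaks (55.6 to 58.1%). The shares were 68.6% for autosomal peaks of 5000 to 6800 bp (64.3 to 72.6%) and 66.7% for wide X peaks (55.7 to 76.4%), and both overlapped that of the wide domains. These intervals and those below cover counting error only and treat peaks as independent, which neighbouring peaks of 1 library are not. When intervals up to 1000 bp apart were joined, the widest autosomal stretch was chr3L:22288601-22401000. It spanned 112.4 kb and was made of 8 deposited intervals, both wide domains of the 3L pair among them. The sequence within 10 kb on either side was also more often covered by peaks. The median covered share of these flanks was 46% around wide domains, against 34% around shorter peaks. For autosomal peaks of 5000 to 6800 bp it was 41%, and for wide X peaks 42%. The flanks of 17 wide domains held no peak at all.

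**Figure D1:**
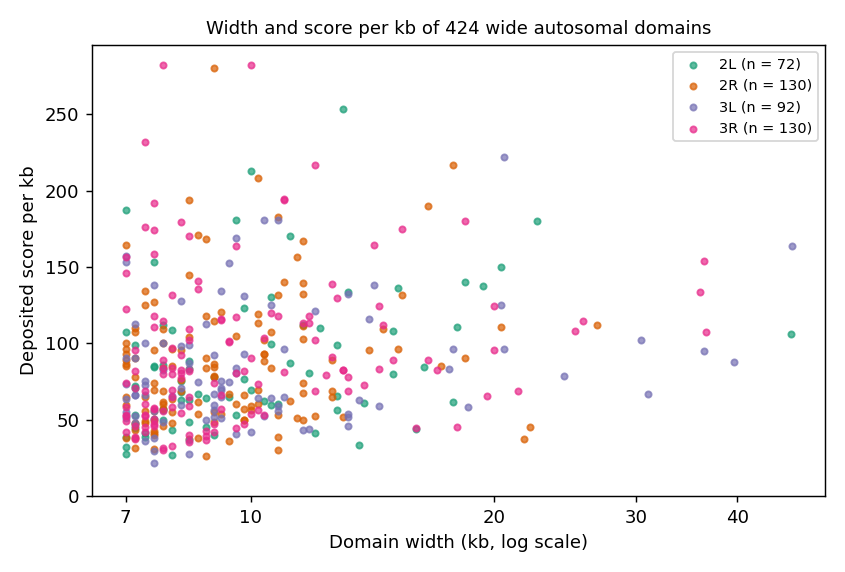
Width in kb (log axis) and score per kb of each of the 424 wide autosomal domains, 1 point per domain, coloured by arm. Most points lie below 15 kb, and the score per kb spans 21.6 to 282.5, with high and low values at most widths.

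Score per kb varied 13.0-fold among the domains, from 21.6 to 282.5, with a median of 78.9 and quartiles of 55.5 and 110.4. The highest values belonged to domains of modest width. The top domain was chr3R:12076201-12086200, 10 kb wide with 282.5 score per kb, and the fifth, chr3R:12068001-12075400 with 231.9, lay only 0.8 kb from it. Between them ranked chr3R:14809801-14817600 with 282.3, chr2R:16938001-16947000 with 280.4 and chr2L:19158801-19171800 with 253.2 score per kb. The 5 densest domains were thus 7.4 to 13 kb wide, and none was among the 10 widest.

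The sparsest domains were of similar width to the densest. The lowest score per kb was 21.6, at chr3L:16892401-16900000, which was 7.6 kb wide with a score of 164.5. It was followed by chr2R:18792801-18801600 with 26.1, chr2L:7812601-7820600 with 27.1, chr2L:19777001-19784000 with 27.5 and chr3L:8811601-8820000 with 28.0 score per kb. The last of these opened a run of 6 wide domains on 3L whose score per kb reached 153.3, so a sparse domain could stand beside a dense one. Neighbouring wide domains within 50 kb of each other were only weakly alike in score per kb (Spearman's rho 0.15, Pearson's r 0.19, n = 174 pairs). The pairs share 1 library and its depth.

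The wide domains had more score per kb than the shorter autosomal peaks, with medians of 78.9 and 52.5, a difference of 26.4. It was 6.85 when peaks below the median autosomal score of 108.5 were left out, which removed shorter peaks only. After intervals up to 1000 bp apart were joined, the difference was 14.3. The distributions overlapped widely, since 78.8% of wide domains lay above the median of the shorter peaks, 48.1% above their upper quartile and 16 domains below their lower quartile of 35.9. No score in the whole list was below 41.3, so a listed peak of few bases has a high score per kb by arithmetic. Peaks under 1000 bp had a median of 94.5 score per kb. The highest density of any autosomal peak, 611.0 per kb, belonged to a peak of 1600 bp. Wide domains were 6.53% of the autosomal peaks. They made up 83 of the 100 highest autosomal scores and 4 of the 100 highest scores per kb, the latter near that share.

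From 2000 bp upwards the score per kb rose with width. The median was 42.1 for peaks of 2000 to under 3000 bp, 51.5 for 3000 to under 5000 bp and 61.1 for 5000 to under 7000 bp. Within the wide domains it went on to 69.7 for 7000 to under 10000 bp, 88.0 for 10000 to under 15000 bp, 89.8 for 15000 to under 20000 bp and 107.9 for 20000 bp or more. The 7000 bp threshold therefore fell within an increase that spanned these width classes. Across the 424 domains, width and score were related with Pearson's r of 0.80 and Spearman's rho of 0.63. Width and score per kb were related more weakly, with r of 0.19 and rho of 0.25.

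**Figure D2:**
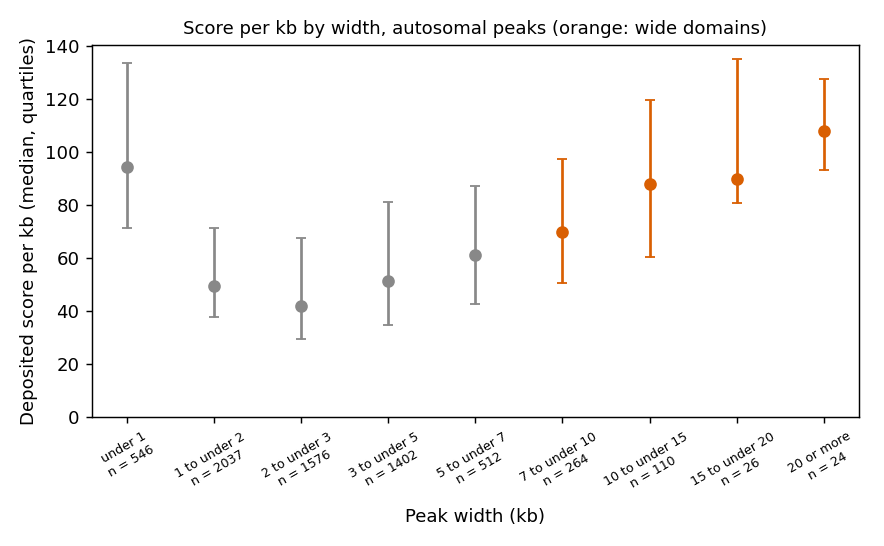
Median score per kb of autosomal peaks in 9 width classes, with bars for the lower and upper quartile and wide domains in orange. The median is 94.5 for peaks under 1 kb, lowest at 42.1 for 2 to under 3 kb and 107.9 for domains of 20 kb or more.

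The X peaks of the same width class were close to the autosomal domains in median score per kb and in median width. Median score per kb was 78.9 on the autosomes and 78.5 on X, a difference of 0.42, against an interquartile range of 55.5 to 110.4 among the autosomal domains. The difference was 8.82 with a threshold of 10000 bp and -0.44 after intervals up to 1000 bp apart were joined. Width and score per kb had Spearman's rho of 0.25 over the autosomal domains and of 0.0082 over the wide X peaks. Pearson's r had the opposite order, at 0.19 over the autosomal domains and 0.30 over the wide X peaks. At 20 kb or more the median score per kb was 107.9 on the autosomes (n = 24) and 57.8 on X, where only 3 peaks were that wide. Median widths were 9000 bp on the autosomes and 9400 bp on X. The widest autosomal domain was 46.8 kb, and X held a peak of 57 kb with a score of 14640.

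The domains were spread unevenly over the arms. Arm 3R had 130 (30.7%), 2R 130 (30.7%), 3L 92 (21.7%), 2L 72 (17.0%) and chromosome 4 none. Per Mb between the first and last peak of the arm, 2R held 6.42 wide domains, 3R 4.66, 3L 3.99 and 2L 3.14, against 3.89 on X. Of the peaks on 2R, 8.17% were wide (exact 95% binomial interval 6.87 to 9.63%), and on 2L 5.50% (4.33 to 6.88%), intervals that barely meet. Arm 2R held 30.7% of the wide domains (26.3 to 35.3%) and 24.1% of the shorter autosomal peaks (23.0 to 25.2%). The share on both arms of chromosome 3 was 52.4% of the wide domains (47.5 to 57.2%) and 55.1% of the shorter peaks (53.9 to 56.4%), which overlap.

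Covered sequence followed the same order. Wide domains covered 6.32% of the span of 2R, 5.01% of 3R, 4.60% of 3L and 3.48% of 2L. As a share of all covered sequence on the arm, they made up 25.3% on 2R, 23.4% on 3R, 22.3% on 3L and 21.1% on 2L, a narrower range, and wide X peaks made up 23.5% on X. Median score per kb was 82.5 on 3R, 78.4 on 2R, 73.5 on 2L and 73.0 on 3L, a spread small beside the quartiles within any arm. Chromosome 4, the small arm that is largely heterochromatic, had 28 peaks, the widest of 6000 bp. Taken as an upper limit of 3 counts, 0 of 28 allows a share of wide peaks of up to 10.7%, and the exact 95% binomial upper limit is 12.3%, so a lower share than on the other arms was not detectable at this number of peaks.

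**Figure D3:**
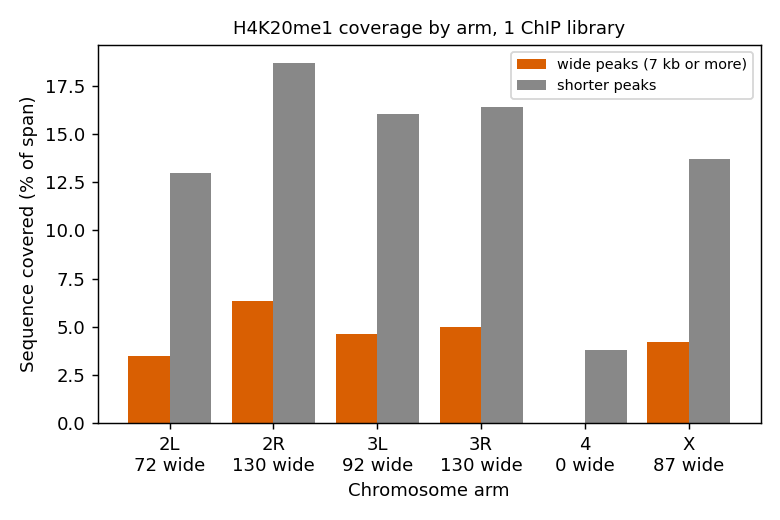
Percent of each arm's span, from its first to its last peak, covered by wide peaks (7 kb or more, orange) and by shorter peaks (grey), with X for comparison. Wide domains cover 6.32% of 2R and 3.48% of 2L, and none lies on chromosome 4.

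Wide domains lay nearer to each other than shorter peaks lay to them. The median distance between facing edges was 22.2 kb from a wide domain to the next wide one and 66 kb from a shorter autosomal peak to a wide one. Another wide domain lay within 50 kb of 271 of the 424 (63.9%, exact 95% binomial interval 59.1 to 68.5%), against 44.3% of the shorter peaks (43.0 to 45.6%). The 28 peaks of chromosome 4 counted as having none. Peaks of 5000 to 6800 bp, just outside the rule, lay between the other sets at 52.5% (48.1 to 56.9%). On X, another wide X peak lay within 50 kb of 62.1% of the 87 (51.0 to 72.3%), so the autosomal and X shares overlapped.

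**Figure D4:**
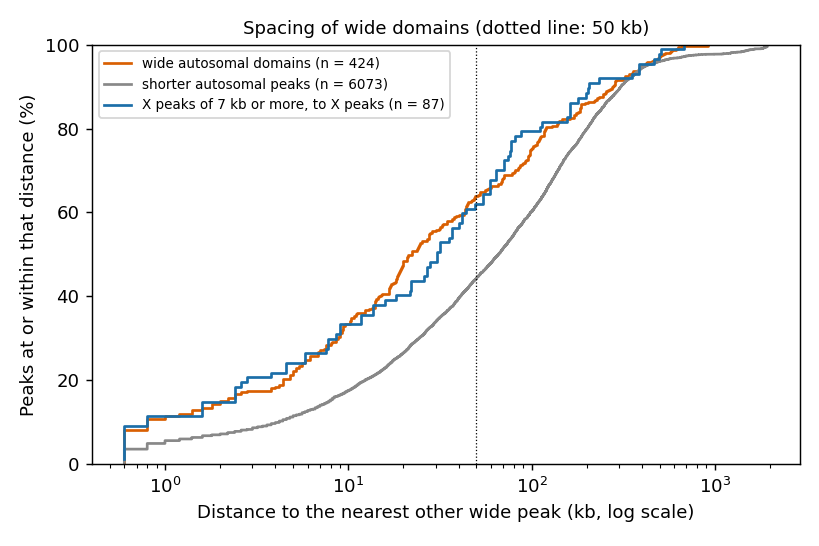
Cumulative percent of peaks by distance in kb (log axis) to the nearest other wide peak, for wide autosomal domains, shorter autosomal peaks and wide X peaks, with a dotted line at 50 kb. At 50 kb the lines stand at 63.9%, 44.3% and 62.1%.

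Chained at 50 kb, the domains formed 97 clusters and left 153 single domains. Pairs made up 58 of the clusters, triples 23 and groups of 4 or more 16. The sizes depended on the distance. At 20 kb there were 10 groups of 4 or more, 219 single domains and at most 6 domains in a cluster, and at 100 kb there were 33 such groups, 105 single domains and at most 11. Clustered and single domains differed little in width (medians of 9000 and 8800 bp), and their median scores per kb were 81.9 and 73.0, with quartiles of 56.0 and 111.0 in clusters and of 54.1 and 109.1 for single domains. By arm, the share with a wide neighbour within 50 kb was 69.2% on 2R, 63.0% on 3L, 62.3% on 3R and 58.3% on 2L.

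The largest cluster was chr2R:2979401-3203400, with 11 wide domains in 224 kb that covered 47.1% of it. Its domains were 7 to 18.4 kb wide. Their score per kb ran from 35.9, in the last domain before a gap of 36 kb, to 134.6. The next was chr2R:10035401-10239200, with 8 domains of 7.2 to 17.2 kb in 203.8 kb and 48.2 to 110.3 score per kb. The third, chr3L:133201-320200, held 8 domains of 7.2 to 13.2 kb in 187 kb. Its score per kb ran from 48.0 to 180.7, the largest difference between lowest and highest of these clusters. As a ratio of highest to lowest, it was close to that of the largest cluster.

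Pooled over the arms, the share of peaks that were wide was higher at the telomere ends than in any other segment. Coordinates of 2L and 3L start at the telomere, and those of 2R and 3R end there. With the span of each of these 4 arms cut into 10 equal segments, those at the telomere held 82 of the wide domains (19.3%), against 9.71% of the shorter peaks on these arms. Of the 669 peaks there, 12.3% were wide (exact 95% binomial interval 9.87 to 15.0%), against 5.90% of the 5800 peaks in the other segments (5.30 to 6.53%). The other segments, each pooled over the 4 arms, ran from 4.87 to 6.88%.

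On each arm the share at the telomere was above that in the rest of the arm as a whole. In the segment at the telomere and in the rest of the arm, the shares of peaks that were wide were 13.4% and 4.55% on 2L, 12.4% and 7.69% on 2R, 11.1% and 4.99% on 3L, and 12.5% and 6.07% on 3R. The exact 95% binomial intervals of both shares overlapped on 2R (7.76 to 18.5% and 6.36 to 9.20%) and not on the other 3 arms. The telomere segment did not stand alone on every arm. On 2R the second segment from the centromere end held more wide domains, 22 against 20, and 11.5% of its peaks were wide. On 3R the segment next to that at the telomere held 18 wide domains, 11.5% of its peaks. On X, 12.5% of the peaks in the segment at the telomere were wide, against 5.50% in the rest, so the pattern was not particular to the autosomes. The domains at the telomere ends were not denser than the others, with median scores per kb of 79.9 and 78.5. The segments were chosen as a display after the positions had been seen, and the gene density and sequence content of these ends were not analysed here.

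**Figure D5:**
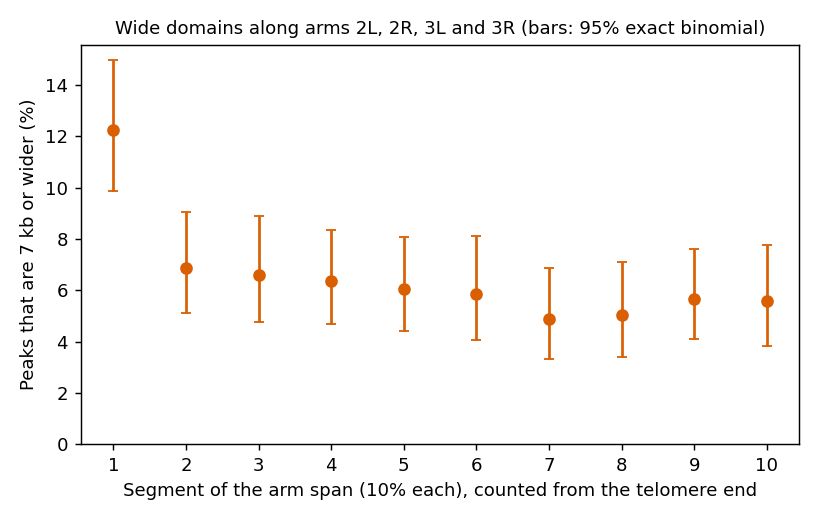
Percent of peaks that are at least 7 kb wide in each of 10 equal segments of the arm span, counted from the telomere end and pooled over 2L, 2R, 3L and 3R, with exact 95% binomial intervals as bars. The first segment stands at 12.3% and the others between 4.87 and 6.88%.

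In windows of 1 Mb the count of wide domains ran from 0 to 15, with a median of 4 over 96 windows. The fullest windows were 20 to 21 Mb of 2R and 0 to 1 Mb of 3L, with 15 each, and both lie at telomere ends. The third was 11 to 12 Mb of 2R, inside the arm, with 13. Of the 7 windows with none, those at the centromere ends of 2L, 2R and 3L held only 13, 3 and 1 peaks of any width. The other 4 formed an unbroken run on 2L. The stretch without a wide domain there, chr2L:13832801-18139400, was 4307 kb long, against longest stretches of 1402 kb on 3L, 1239 kb on 3R and 1014 kb on 2R. It was not free of the mark, as it held 159 shorter peaks. These came at 36.9 per Mb in the stretch, against 57.9 shorter peaks per Mb in the rest of 2L. Peaks of all widths covered 7.80% of the stretch and 18.5% of the rest of the arm. The second share includes wide domains, which the stretch lacks by its choice. Shorter peaks alone covered 13.0% of the whole span of 2L, the stretch included. The shorter peaks in the stretch had a median width of 1800 bp and 46.2 score per kb, against 2200 bp and 52.4 score per kb for those elsewhere on 2L.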

How the data were processed

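The data are 1 ChIP-seq library for H4K20me1 from wild-type wing discs. The authors deposited peak intervals with a score per peak, with no header. Positions are on dm3, and SICER, a caller for broad marks, and Bowtie 1.0.0 are among the tools listed, per the submitters' processing notes, with no role stated for either. No source used here gives thresholds, the use of the input library, the depth or the scale of the score. All widths are multiples of 200 bp, and the smallest gap is 600 bp, so widths depend on the window and gap settings of the caller. File positions count from 0 with both edges inside, and are printed counted from 1.

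Counts, widths, score per kb, distances between facing edges and clusters (gaps of at most 50 kb, at least 2 members) were computed with Python 3.11.15, pandas 2.3.3, numpy 2.4.6 and scipy 1.17.1 and tested on simulated intervals. Alternatives were other widths, distances, joined intervals and a stricter score. The members, lists and settings were chosen with earlier results of these data known. Domains named were the 10 widest, the widest per arm, the 5 highest and 5 lowest in score per kb, and the 3 clusters with the most members. The 5 peaks to be named on each side of the threshold were replaced by all peaks at those widths, because widths were tied. Other windows and stretches were chosen after their values were seen. The expression values were not used, because no dm3 gene positions were at hand, so no gene or sequence is placed in a domain.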

Additional observations from a re-analysis of the deposited data

How the results depend on the processing

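With a width threshold of 5000 bp there were 936 domains, and with 10000 bp 160. Joining intervals up to 1000 bp or 3000 bp apart gave 900 and 1088. Their share of the autosomal covered sequence was 38.1% at 5000 bp, 12.2% at 10000 bp, 56.6% after joining across 1000 bp, 32.1% with peaks at or above the median autosomal score and 23.2% without chromosome 4. The median score per kb exceeded that of shorter autosomal peaks by 15.4 at 5000 bp, 39.7 at 10000 bp, 14.3 after joining, 6.85 with the stricter score and 30.6 against shorter peaks of at least 2000 bp. The difference from wide X peaks was 0.0087 at 5000 bp and 8.82 at 10000 bp. It changed sign, to -0.44, after joining, and the cause was not tested. The share with a wide neighbour within 50 kb was 82.8% at 5000 bp, 43.1% at 10000 bp and 79.6% after joining. The number of domains also changed at these settings, and no share of shorter peaks was computed beside them. At 7000 bp the share of wide domains was 48.3% within 20 kb and 75.2% within 100 kb. For shorter autosomal peaks it was 26.6% and 60.2%. Peaks in the segment at the telomere were more often wide than other peaks by 6.36 percentage points at 7000 bp. This was 10.1 at 5000 bp, 3.24 at 10000 bp and 8.80 after joining, alternatives chosen after seeing the data. Clusters numbered 81 within 20 kb and 93 within 100 kb, but they held 205 and 319 domains, against 271 within 50 kb. The share on chromosome 3 ran from 50.6 to 54.4%. No paired analysis was possible because the ChIP peaks come from 1 library. The sequencing depth is unknown, so no limit from depth is given.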
